A study of Mus musculus with 2 samples.

Results

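The glycolysis, lactate and pyruvate entry genes are 35 genes that carry glucose into the cell, convert it to pyruvate and lactate, and control whether pyruvate enters the mitochondrion. They were chosen by name, with earlier results of these data known, and matched by GENCODE M21 gene identifier to 35 of the 55536 annotated genes in the tables. The symbol Aldoa belongs to 2 identifiers; the gene at mm10 chromosome 7, 126795234 to 126800751, minus strand, was taken as the member. The other, at 126800790 to 126809108, had 3 estimated counts in library 1 and 0 in library 2 and is not described further.

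The cells were mouse regulatory T cells, a Foxp3-dependent CD4 lineage known for damping immune reactions. The labels give the strain as Foxp3CreERT2 x Rosa26YFP, so the Foxp3 gene drives an inducible Cre recombinase and the Rosa26 locus carries a YFP reporter. The donor was 1 adult male aged 4 months, and the cells are labelled as primary cells that derive from a haematopoietic cell of the bone marrow. No sort, gate, inducing drug or treatment is named. PolyA plus RNA of this 1 biological sample gave 2 technical libraries, called library 1 and library 2, which form the only group. No comparison between conditions exists, every SD below is technical (n = 2), and every p-value measures the difference between these libraries. In a bulk sample, fewer cells expressing a gene and less RNA per cell cannot be told apart.

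Library 1 held 15821875 estimated counts on genes and library 2 held 16153671. All 7 T cell markers and all 6 regulatory T cell markers were at 10 TPM or more in both libraries, with Foxp3 at 43.2 TPM in library 1 and 36.2 TPM in library 2. Among markers of other cells, the 10 neutrophil and monocyte genes summed to 4.30 and 6.41 TPM, the 5 platelet genes to 0.590 and 0.560, and the 6 B cell genes to 35.4 and 35.5, almost all of it Cd79b. The 7 CD8 T and NK cell genes summed to 46.2 and 49.4 TPM, led by Gzmb. The 7 red cell genes summed to 28.7 and 21.2 TPM, and the 6 stroma genes to 4.47 and 2.84. TPM divides a transcript's reads by transcript length, which allows levels to be compared between genes. Such comparisons still depend on how reads are assigned to transcripts and to similar genes, as described below. A count of 0 allows up to 3 counts, which is 0.190 CPM (counts scaled to the library total) in library 1 and 0.186 in library 2, counting error only.

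Glycolysis splits glucose into pyruvate in the cytosol. Hexokinase traps glucose, phosphofructokinase commits it, and the enzymes from aldolase to pyruvate kinase harvest ATP and NADH. Lactate dehydrogenase turns pyruvate into lactate and restores NAD, and monocarboxylate transporters let lactate out. The pyruvate dehydrogenase complex instead feeds pyruvate into the mitochondrion, and its kinases switch it off. In T cells the pathway is known to rise on activation, under Myc and Hif1a among others, and regulatory T cells are known to lean less on it than effector T cells.

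The mRNA of 33 of the 35 members reached 1 TPM in both libraries, beside 46.5% of the 22028 annotated protein-coding genes. The exceptions were Hk3 and Pdk4. The median member level was 38.0 TPM, and the median of the 10251 expressed protein-coding genes was 18.5 TPM. Of the members, 21 lay above that median and 12 stayed under 10 TPM in both libraries. Together the members took 0.570% ± 0.0007 of all estimated counts (SD, n = 2).

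**Figure D1:**
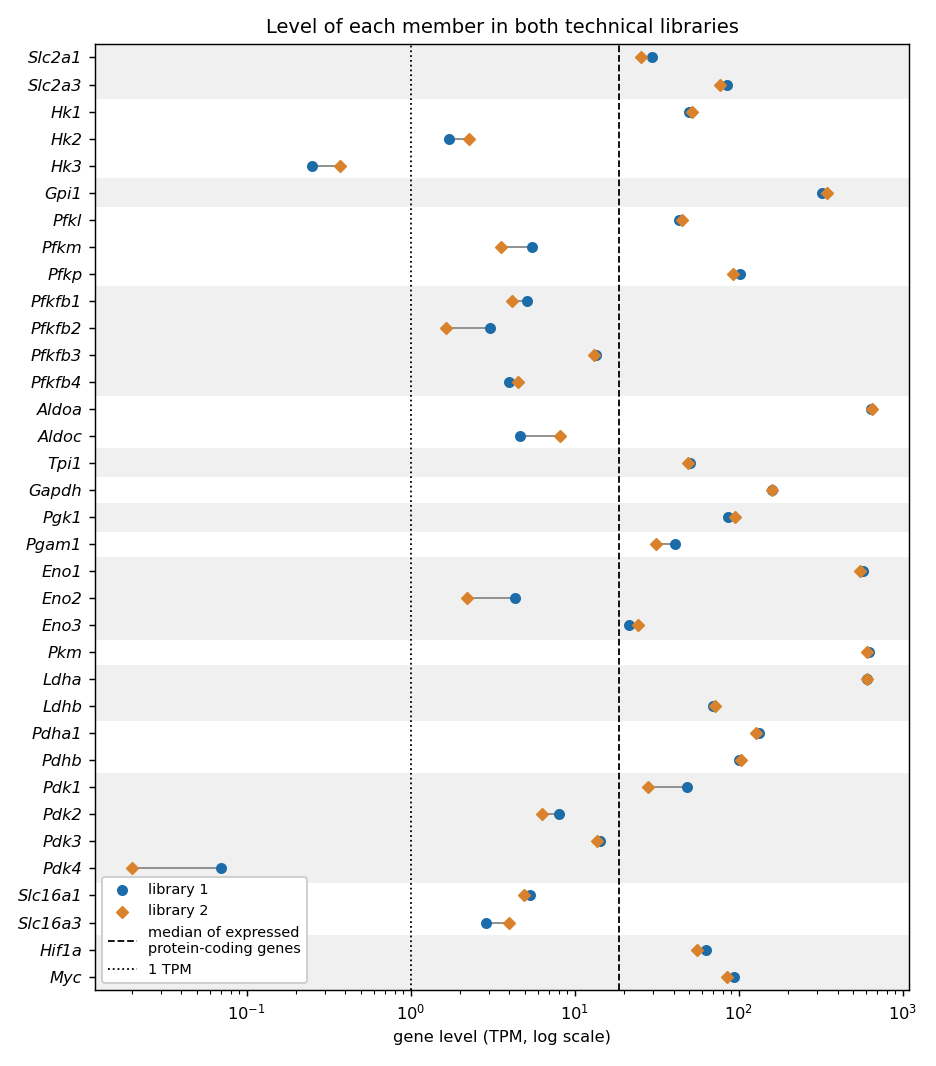
Level of each member in TPM (log scale) in library 1 (circles) and library 2 (diamonds), grouped by role in alternating bands. Aldoa, Pkm, Ldha and Eno1 sit above 500 TPM in both libraries, while Hk3 and Pdk4 fall under 1 TPM.

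Aldoa, Pkm, Ldha and Eno1 stood far above the rest and held 60.9% ± 0.224 of the members' summed TPM. Aldoa, the aldolase that splits the doubly phosphorylated sugar, was at 636 TPM in library 1 and 651 TPM in library 2. Pkm, the pyruvate kinase of most tissues outside liver and red cells, was at 620 and 602 TPM. Ldha, the lactate dehydrogenase subunit that favours lactate production, was at 601 and 607 TPM. The libraries of Pkm and Ldha overlapped, so these neighbours did not differ beyond their spread. By gene TPM both lay under Aldoa and above Eno1 in each library. On protein-coding transcripts alone, Pkm was at 613 and 596 TPM and Aldoa at 600 and 614.5 TPM. The order of Pkm and Aldoa thus changed between the libraries. Eno1, the broadly expressed enolase, was at 572 and 545 TPM. Gpi1, glucose phosphate isomerase, came next at 319 and 344 TPM, followed by Gapdh at 160 TPM in both. On mm10, Pkm (ENSMUSG00000032294.17) lies on chromosome 9 from 59656368 to 59679375, Ldha (ENSMUSG00000063229.15) on chromosome 7 from 46841475 to 46855627, and Eno1 (ENSMUSG00000063524.13) on chromosome 4 from 150236721 to 150248879, all on the plus strand.

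The order of the levels was resolved only in part. Of the 34 pairs of neighbours in the order of mean level, 18 were separate, with both libraries of one above both of the other, and 16 overlapped. Pdhb, Pfkp, Pgk1, Myc and Slc2a3 formed 1 run of overlapping neighbours between 76.4 and 103 TPM. A second run went from Pdk2 at 7.98 and 6.35 TPM through Aldoc, Slc16a1, Pfkfb1 and Pfkm to Pfkfb4 at 4.00 and 4.53 TPM, and another held Slc16a3, Eno2, Pfkfb2 and Hk2. In these low runs the order of the genes is not resolved.

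The transcripts of Pkm show which pyruvate kinase the cells made mRNA for. Pkm has 2 mutually exclusive exons, and 1 annotated transcript holds each. They are the M1 exon, typical of adult muscle and brain, and the M2 exon, typical of proliferating and immune cells. Both are exon 9 of their transcript, 167 bases long and coding, on mm10 chromosome 9, plus strand. The M1 exon, held by Pkm-202, lies at chr9:59675029-59675195 and the M2 exon, held by Pkm-201, at chr9:59675568-59675734. They are shown because reads in them tell the isoforms apart. Capitals mark the 64 bases that differ between them, which leaves 61.7% identical.
M1 exon of Pkm: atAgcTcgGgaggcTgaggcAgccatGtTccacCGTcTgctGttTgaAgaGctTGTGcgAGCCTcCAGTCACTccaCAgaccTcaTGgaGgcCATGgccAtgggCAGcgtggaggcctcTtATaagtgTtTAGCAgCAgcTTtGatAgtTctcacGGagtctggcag
M2 exon of Pkm: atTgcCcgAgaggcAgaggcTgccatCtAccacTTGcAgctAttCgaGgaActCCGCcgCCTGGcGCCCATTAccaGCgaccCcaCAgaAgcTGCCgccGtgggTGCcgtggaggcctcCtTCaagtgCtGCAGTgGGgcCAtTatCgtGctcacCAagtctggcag

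Pkm-201, the M2 form, was at 521 TPM in library 1 and 507 TPM in library 2. Pkm-202, the M1 form, was at 23.7 and 23.5 TPM. The M2 form thus took 95.6% ± 0.0591 of the TPM of both (SD, n = 2), and 96.3% ± 0.0499 of their estimated counts. Pkm-211, a shorter coding transcript that ends before both exons, is left out of these shares. It was at 63.7 and 61.2 TPM, above Pkm-202 in each library. The annotation limits the M1 value: of the 216 windows of 50 bases that overlap the M1 exon, 178 also occur in another Pkm transcript that lacks it as a separate exon, against 12 of 216 for the M2 exon. In addition the unspliced gene Gm49759, on the same strand, covers both exons and took 205 and 180 counts.

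Glucose uptake was led by Slc2a3, the high-affinity glucose transporter found in neurons and lymphocytes. It was at 85.1 TPM in library 1 and 76.4 TPM in library 2, while Slc2a1, the widely expressed transporter, was at 29.6 and 25.2 TPM. Slc2a3 was therefore 2.96 ± 0.110 times as high, and it exceeded Slc2a1 in both libraries. Most of the Slc2a1 level sat on Slc2a1-204, annotated for nonsense-mediated decay, which held 63.9% and 68.3% of the gene's TPM. On protein-coding transcripts alone the ratio was 7.96 ± 1.23.

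Hexokinase mRNA was almost all Hk1, the enzyme bound to mitochondria in most tissues. Hk1 was at 49.5 and 51.7 TPM and took 95.7% ± 0.715 of the step. Hk2, the inducible form of muscle, fat and activated lymphocytes, was at 1.71 and 2.25 TPM, from 58 and 80 counts. Hk3, a form of myeloid cells, stood under 1 TPM in both, from 9 and 14 counts. The libraries of the 3 genes did not overlap.

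Phosphofructokinase was shared by 2 genes. Pfkp, the platelet-type subunit, was at 101.7 and 92.3 TPM and took 66.5% ± 1.41 of the step, and Pfkl, the liver-type subunit, was at 43.5 and 45.0 TPM and took 30.4% ± 2.20. Pfkm, the muscle-type subunit, was at 5.50 and 3.55 TPM. The 4 Pfkfb genes encode the enzymes that make and break the sugar bisphosphate that activates phosphofructokinase. Pfkfb3, the form with the strongest synthetic activity, led them with 13.5 and 13.1 TPM, 54.3% ± 2.37 of the family. Pfkfb1, Pfkfb4 and Pfkfb2 lay between 1.64 and 5.11 TPM, and the first 2 of these overlapped.

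Aldolase and enolase were each mostly 1 gene by TPM. Aldoa took 99.0% ± 0.364 of its step, beside Aldoc, the brain form, at 4.61 and 8.14 TPM. Eno1 took 95.5% ± 0.219 of the enolase members, with Eno3, the muscle form, at 21.5 and 24.2 TPM and Eno2, the neuronal form, at 4.31 and 2.20 TPM. Eno1b, annotated as protein coding, is not a member and is left out of this share. It was at 24.5 and 31.7 TPM, above Eno3 in each library. By counts per length in the smaller gene table, on an older annotation, Eno1 took 52.8% of the enolase members.

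Between these steps lay enzymes with much lower levels. Tpi1, triose phosphate isomerase, was at 50.5 and 48.9 TPM, and Aldoa was 13.0 ± 0.523 times as high. Pgk1, phosphoglycerate kinase, was at 85.5 and 94.96 TPM. Pgam1, phosphoglycerate mutase, was at 40.8 and 31.1 TPM, the lowest of the steps from glucose phosphate to lactate that are shown. All 4 of these triose enzymes, Gapdh included, were below every library of Aldoa, Eno1, Pkm and Ldha.

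**Figure D2:**
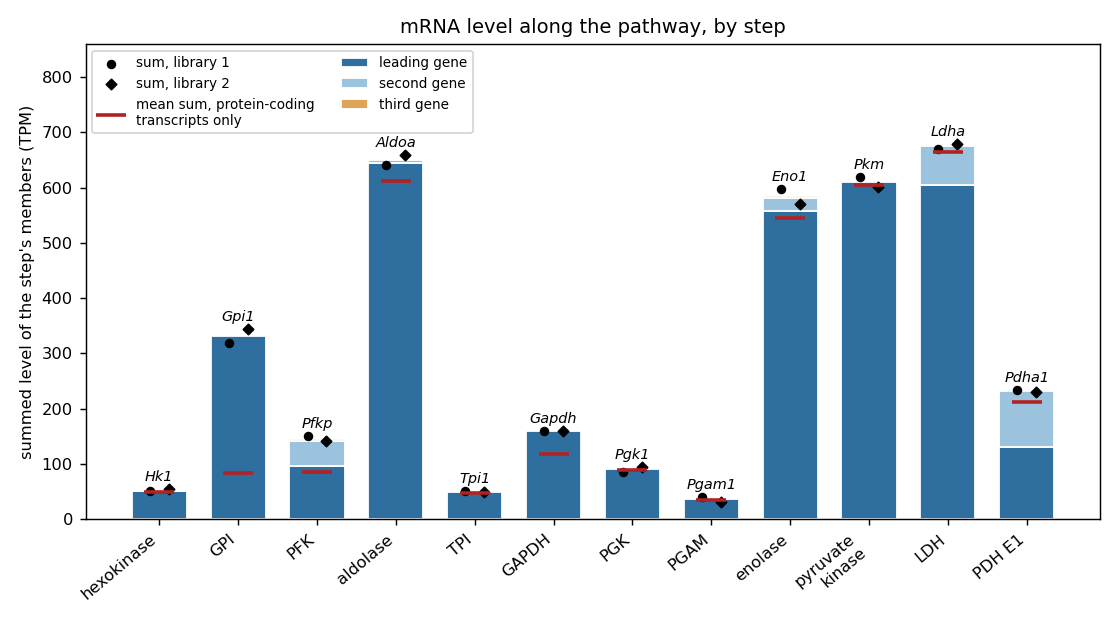
Summed TPM of the members of each step along the pathway: bars are means of the 2 libraries split by gene, symbols are the sums per library, and the horizontal red marks count protein-coding transcripts only. Aldolase, enolase, pyruvate kinase and lactate dehydrogenase stand between 571 and 679 TPM, the steps between aldolase and enolase between 31.1 and 160 TPM.

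At the end of the pathway, lactate dehydrogenase was mainly Ldha. Ldhb, the subunit that favours pyruvate, was at 69.5 and 71.3 TPM, and Ldha was 8.58 ± 0.0974 times as high. The monocarboxylate transporters were low: Slc16a1 was at 5.33 and 4.89 TPM and Slc16a3, the form of strongly glycolytic cells, at 2.87 and 3.95 TPM. The genes Bsg and Emb, which encode accessory glycoproteins of monocarboxylate transporters, were at 93.4 and 94.1 TPM and at 86.0 and 91.6 TPM. Both partner genes were above both transporter genes in each library.

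For pyruvate entry, both genes of the first enzyme were at 100 TPM or more in each library. Pdha1 and Pdhb, the subunits of the first enzyme of pyruvate dehydrogenase, were at 133 and 127 TPM and at 100.3 and 103 TPM, a ratio of 1.28 ± 0.0754. Of the kinases that inhibit the complex, Pdk1 had the highest TPM, 48.1 in library 1 and 27.8 in library 2. Pdk3 was at 14.2 and 13.6 TPM, Pdk2 at 7.98 and 6.35 TPM, and Pdk4, the kinase of fasting muscle and heart, had 3 counts and 1 count. The lead of Pdk1 depends on transcripts that are not annotated as coding: Pdk1-208, a processed transcript, held 46.8% and 51.8% of its TPM. On protein-coding transcripts alone Pdk1 was at 8.39 ± 0.714 TPM and 0.652 ± 0.00290 times Pdk3, and Pdk1 then held 29.7% of the kinase step in place of 63.3%.

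The regulators were both expressed. Myc was at 93.3 and 84.7 TPM and Hif1a, the oxygen-regulated subunit of the hypoxia factor, at 63.1 and 55.9 TPM. In each library Myc was the higher of the pair. The transcripts Myc-201 and Myc-205 were given the same count, 556 in library 1 and 443 in library 2.

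How much of a member's level came from coding transcripts varied widely. In 20 members over 90% of TPM lay on protein-coding transcripts, and in 7 members less than 50% did. These 7 were Pdk1 with 23.4%, Gpi1 with 25.2%, Slc2a1 with 33.9%, Eno2 with 36.7%, Hk2 with 44.4%, Pfkfb4 with 45.8% and Pfkfb3 with 47.6%. The place of Gpi1 in the pathway depended on this: it was at 332 ± 17.4 TPM over all transcripts and at 83.3 ± 1.58 TPM on coding transcripts, where the phosphofructokinase genes summed to 86.0 ± 1.67 TPM. The short Gpi1 transcripts annotated for nonsense-mediated decay, Gpi1-206, Gpi1-207 and Gpi1-208, held 17.8%, 27.7% and 18.8% of its TPM. The leading coding transcript of Gpi1 held 22.8% of the TPM and 48.2% of the estimated counts, since TPM weights short transcripts more. The median member was at 29.1 TPM on coding transcripts alone, beside 12.6 TPM for the expressed protein-coding genes counted the same way.

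**Figure D3:**
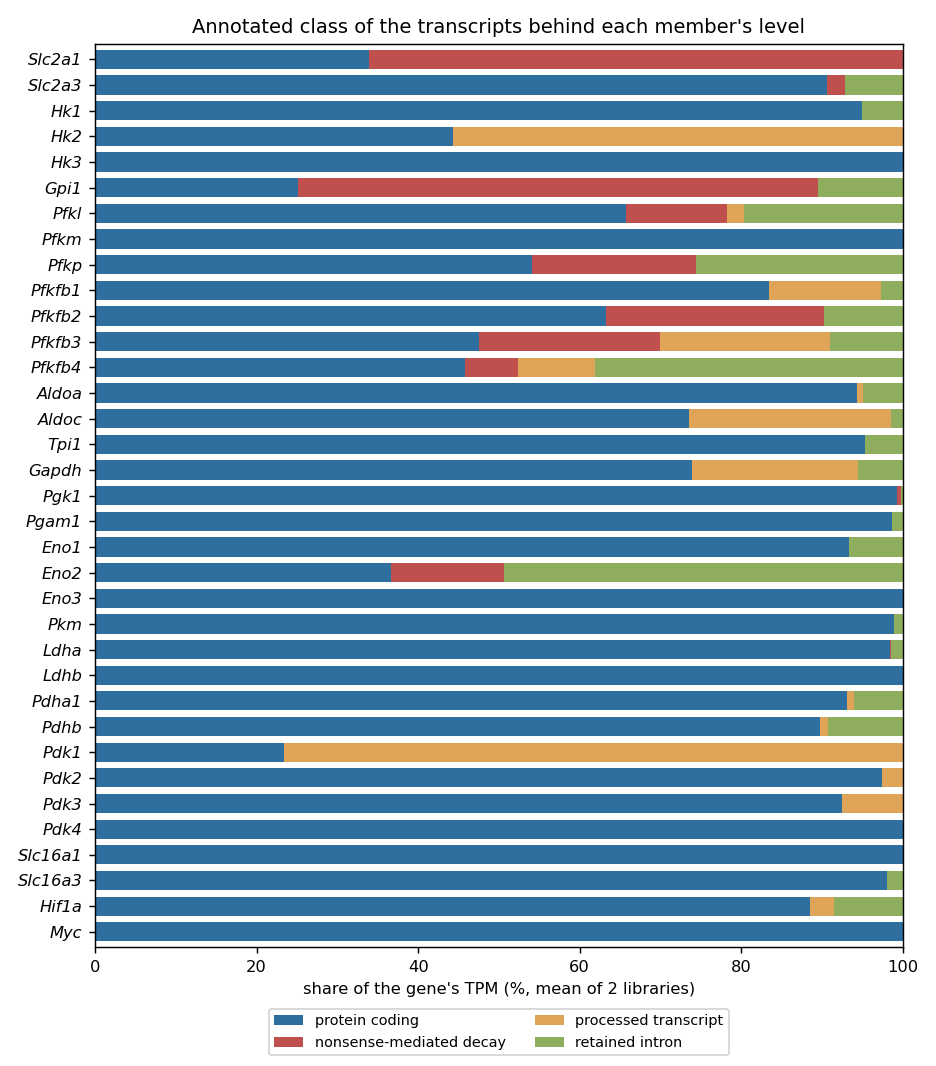
Share of each member's TPM (mean of 2 libraries) on transcripts annotated as protein coding, nonsense-mediated decay, processed transcript or retained intron. Pdk1, Gpi1 and Slc2a1 have 23.4%, 25.2% and 33.9% on coding transcripts, while Pgk1, Pkm and Ldha have over 98%.

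The transcript with the largest share was the same in both libraries for 31 of the 35 members. It differed for Hk3, Pfkfb3, Pfkfb4 and Eno2. Even where the leader was stable, near-equal transcripts could appear in opposite libraries: Pfkm-202 held 46.5% of the gene in library 1 and 0% in library 2, and Pfkm-205 held 0% and 49.3%. In Eno3 the same was seen between a coding transcript with 36.4% and 0.01% and another with 0% and 39.0%. The gene level of Eno3 moved far less, from 21.5 to 24.2 TPM. Among the 85 member transcripts that reached 10% in 1 library or both, the median gap between libraries was 5.27 percentage points.

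Several glycolytic genes share long stretches of sequence with processed pseudogenes, copies of a spliced mRNA in the genome. Gapdh, which oxidises the triose phosphate and is a common reference gene, is the extreme case. Every one of the 950 windows of 50 bases in the coding sequence of Gapdh-201 occurs in at least 1 other annotated gene. The window found in the most others, at chr6:125162898-125162947 on the mm10 minus strand in exon 4, occurs in 83 other genes, of which 80 are pseudogenes. It is shown to make that sharing concrete; no letters are in capitals, since all 50 bases are shared.
Window of Gapdh: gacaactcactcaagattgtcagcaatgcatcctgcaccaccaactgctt

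Reads in such windows cannot be placed by sequence alone. The 213 pseudogenes that share windows with Gapdh took 1025 counts in library 1 and 1178 in library 2, beside 1625 and 1671 for Gapdh itself. That is 38.7% and 41.3% of the sum. With their TPM added, the level of Gapdh was 1.56 times as high, still under Aldoa, Eno1, Pkm and Ldha. The 3 genes that share most of its windows, Gm7336, Gm10359 and Gm12671, each took at most 10.1 counts. How the remaining counts were spread over the other copies was not examined.

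In 8 members, 20% or more of the windows of the leading coding transcript occur in another gene. These were Gapdh with 90.4%, Eno1 with 72.2%, Pgk1 with 68.0%, Pgam1 with 41.5%, Pkm with 34.4%, Pdhb with 30.3%, Ldhb with 27.0% and Pfkfb2 with 25.1%. For Pgk1 the near-identical copies Pgk1-rs7 and Gm5537 were assigned reads in opposite libraries: Pgk1-rs7 took 337 counts in library 1 and 6.13 in library 2, and Gm5537 took 0.600 and 317. Adding the pseudogenes moved Pgk1 from 90.2 to 112 TPM. A further pseudogene that shares windows with Pgk1, AC131796.1, had 3.95 counts and 0. Eno1 shares windows with Eno1b, annotated as protein coding, at 527 and 713 counts. It also shares windows with the pseudogenes Gm4735, at 599 and 499, and Gm5855, at 8.36 and 4.03. Eno1 itself had 13421 and 13387. Adding the pseudogenes of each gene moved the mean of Eno1 from 558 to 595 TPM and that of Ldha from 604 to 611 TPM. The libraries of Eno1 and Ldha then overlapped. The pseudogenes Pgam1-ps2, Gm6123 and Gm5514 took at most 45.0 counts beside Pgam1, Pdhb and Ldhb, and Gm6560 took 75.7 and 94.98 beside Pkm. Gm29427, which overlaps Pfkfb2 on the same strand, had 0 counts.

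A second gene table, with whole-number counts on the GENCODE M4 annotation, gave very different counts for the same genes. Across 8836 protein-coding genes with 200 or more estimated counts, its counts were a median of 39.6% of those in the larger table. For Pgam1 the share was 0.321%, for Pgk1 0.981%, for Gapdh 3.25% and for Eno1 3.50%. Gapdh had 56 counts in library 1 and 51 in library 2 there, and Pgam1 had 4 and 1. Pkm, Ldha and Aldoa had 9.75%, 11.2% and 16.2%. Ldhb, with 27.0% of its windows shared, kept 38.5%, and Hk2 was low, at 6.52%, with 0% of the windows of its leading coding transcript shared. How that table treats reads with several matches is not given in the sources used here, and the part of shared windows in these low shares was not tested.

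**Figure D4:**
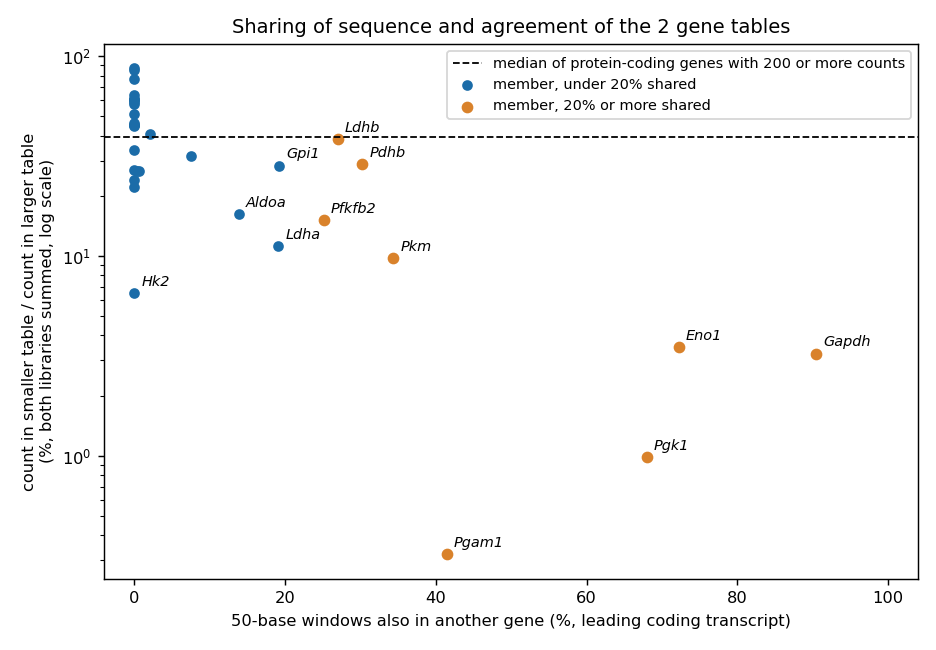
Each member's share of 50-base windows that also occur in another gene (horizontal axis) against its count in the smaller gene table as a percent of that in the larger one (vertical axis, log scale); Pdk4 is left out. Eno1, Pgk1 and Gapdh, all above 60% shared, lie under 4%, and the dashed line marks the 39.6% median of protein-coding genes.

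Neighbouring genes overlap some members on the genome. Exons of 13 members overlap a gene on the opposite strand, and the strand setting of the counting is not given in the sources used here. For Pdha1 16.1% of exonic bases overlap Map3k15, which had 29.9 and 22.2 counts, and for Gpi1 11.5% overlap Gm26762, which had 76.8 and 95.3. Pfkp shares 5.58% of its exonic bases with Pitrm1, at 1375 and 1311 counts beside 2617 and 2527 for Pfkp. Some opposite-strand genes had more counts than the member. Pfkfb2, at 101 and 64 counts, shares 2.12% with Yod1, at 1186 and 1222. Pfkfb1, at 83 and 71, shares 3.06% with Apex2, at 338 and 313. Pfkm, at 181 and 129, shares 0.539% with Senp1, at 1293 and 1212.

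Between the libraries the members differed little in size. An exact two-sided binomial test on estimated counts, with p-values adjusted by the Benjamini-Hochberg method over 17458 genes, called 14 of the 34 members with enough counts, 41.2%, beside 24.4% of all genes tested. Of the 14, 6 were higher in library 2 and 8 in library 1, beside 11.6% and 12.8% of all genes tested. The test covers counting error only, and the libraries varied by 13.0% beyond it (coefficient of variation from the edgeR common dispersion). Calls were more frequent at high counts: among genes with 1000 or more summed counts, 37.1% of all genes and 10 of 21 members were called. With a 1.5-fold minimum added, 2 members passed, Eno2 and Pfkfb2, which is 5.88% of the 34 beside 8.27% of all genes. Under library totals 14 of 34 members were called, beside 24.3% of all genes, and without the count filter 12 of 35, beside 12.8%. The median size of the log2 ratio was 0.13 over the members, 0.16 over the expressed genes and 0.22 over all genes tested.

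Of the calls, Pdk1 had the smallest adjusted p. Its estimated counts were 1651 in library 1 and 1193 in library 2, a log2 ratio of -0.50 with a 95% interval from -0.61 to -0.39 and an adjusted p of 1.2e-17 by the exact binomial test. In the smaller table it had 416 and 215 counts, in the same direction. Its leading coding transcript had 568 and 527 counts, while the non-coding Pdk1-208 had 818 and 549 and Pdk1-204 had 99.7 and 30.2. Hif1a, at 3254 and 2916 counts, had a log2 ratio of -0.19 and an adjusted p of 8.79e-06 by the same exact test. There the transcript Hif1a-202 had 1024 and 413 counts and Hif1a-201 had 2166 and 2415, so one was lower and the other higher in library 2.

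The other calls were small or rested on few counts. Gpi1 had 5299 and 6023 counts, a log2 ratio of 0.16. Aldoa and Ldha were called at log2 ratios of 0.05 and 0.07. Pgam1 had 864 and 695 counts, a log2 ratio of -0.34. Eno2 had 87 and 43 counts and Pfkfb2 had 101 and 64. Pgk1, Hk1 and Aldoc were higher in library 2, and Myc, Pfkfb3 and Pfkm in library 1. Pkm and Gapdh were not called, with 95% intervals of the log2 ratio from -0.03 to 0.03 and from -0.09 to 0.11. Of 32 members tested on the smaller set of counts, 3 were called, Pfkfb3, Pdk1 and Hif1a, beside 9.96% of the 11114 genes tested there.

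**Figure D5:**
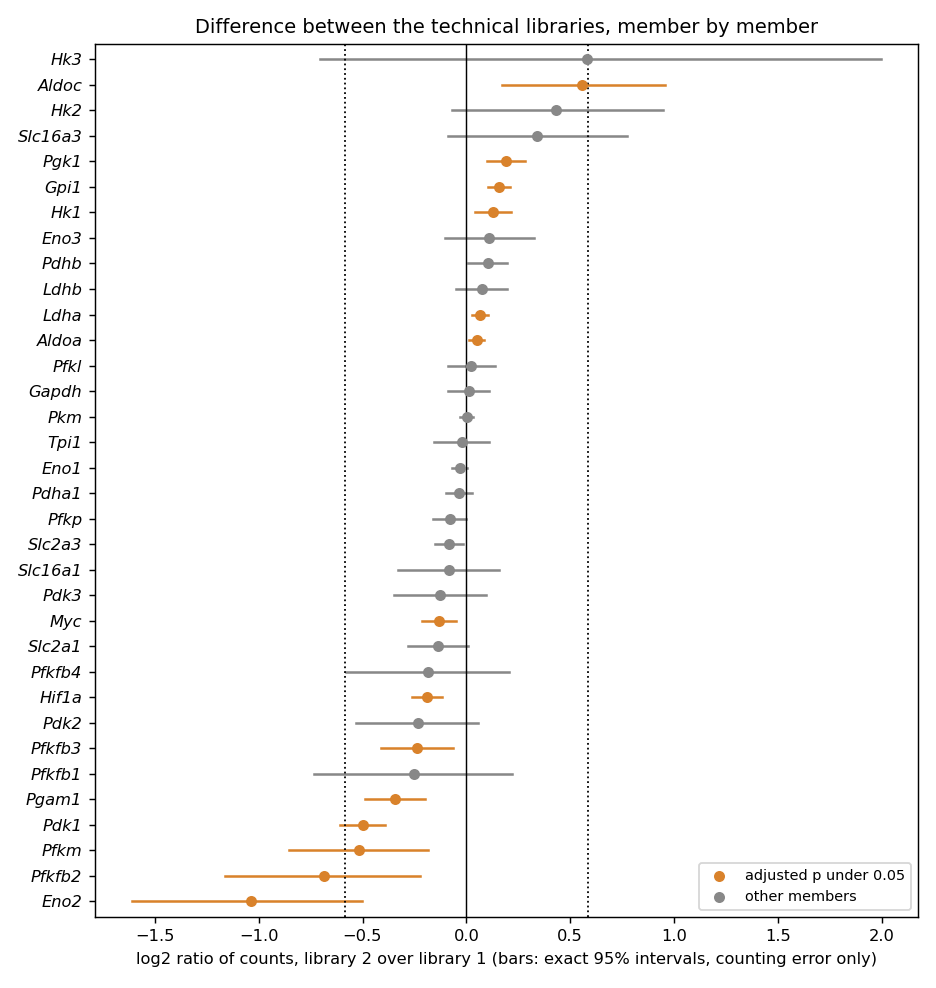
Log2 ratio of estimated counts, library 2 over library 1, for the 34 members tested, with exact 95% intervals that cover counting error only. Orange points are the 14 members with an adjusted p under 0.05, and the dotted lines mark a 1.5-fold difference, passed among these by Eno2 and Pfkfb2.

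The members' promoters were read for the letters that the hypoxia factor and Myc are known to bind. RefSeq promoter windows of GRCm38.p6, from 250 bases before to 50 after a start, matched 33 of the 35 symbols with 52 windows; Slc2a3 and Myc had none. ACGTG or GCGTG, the core of the hypoxia response element, occurred on either strand in 40 of the 52 windows, 76.9%, beside 43.8% of all 32851 windows. CACGTG, the E-box of Myc, which contains ACGTG, occurred in 7 of 52, 13.5%, beside 7.15%. The members' windows were also richer in GC, with a median of 60.5% against 52.7%, and in CpG, with a median of 17.5 against 7, so base composition moved with these counts and its part was not tested. A match is a description of the letters and not of a bound site. The upstream windows of Ldha and Slc16a1, which make and export lactate, held 5 and 4 of the core matches. Each CACGTG was counted on both strands, so these matches are more than the separate places, which are the stretches in capitals. Ldha has another RefSeq start, whose upstream window held 1. They are shown as the 250 bases before the start, on the plus strand, at chr7:46845554-46845803 and chr3:104638414-104638663, with the matches on either strand in capitals.
Ldha upstream: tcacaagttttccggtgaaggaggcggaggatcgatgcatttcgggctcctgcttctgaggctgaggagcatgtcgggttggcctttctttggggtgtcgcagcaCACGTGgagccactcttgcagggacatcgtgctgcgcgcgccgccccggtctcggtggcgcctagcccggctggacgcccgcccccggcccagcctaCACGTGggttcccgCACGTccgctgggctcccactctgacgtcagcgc
Slc16a1 upstream: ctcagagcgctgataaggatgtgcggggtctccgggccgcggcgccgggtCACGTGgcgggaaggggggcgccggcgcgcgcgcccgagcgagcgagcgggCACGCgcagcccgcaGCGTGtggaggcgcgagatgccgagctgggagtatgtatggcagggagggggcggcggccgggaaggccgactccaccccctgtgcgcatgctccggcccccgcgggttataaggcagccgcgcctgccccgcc

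Genes around the pathway that are not members help place these levels. Of 9 other genes of the Slc2a transporter family 3 were expressed, with Slc2a9 highest at 5.89 ± 0.0354 TPM and Slc2a6 next at 1.92 ± 0.177. Slc2a4, Slc2a10 and Slc2a13 had 0 counts. Of 19 other genes listed around the glycolytic steps, isozymes among them, 7 were expressed. The highest were Pgm1 at 27.7 ± 3.41 TPM and Pgam5 at 23.1 ± 0.643 TPM. Pgk2, the testis form of phosphoglycerate kinase, had 0 counts. Of 7 gluconeogenic genes Pck2, at 27.3 ± 0.665 TPM, and G6pc3, at 24.1 ± 3.51 TPM, were expressed, while G6pc and Fbp2 had 0 counts.

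Genes of the mitochondrial side and of the main side branch were mostly expressed. Of 9 other genes of pyruvate entry 8 were expressed, led by the pyruvate carrier subunit Mpc1 at 135 ± 1.36 TPM and by Dld, a further enzyme of the complex, at 67.6 ± 11.5 TPM; Pdha2, the testis form, had 0 counts. In the pentose phosphate pathway, which branches from glycolysis and yields NADPH, 9 of 10 genes were expressed. Taldo1 was at 222 ± 12.1 TPM and Tkt at 167 ± 6.48 TPM, and Tktl2 had 0 counts. Both exceeded every member except Aldoa, Pkm, Ldha, Eno1 and Gpi1, and both lay below Gapdh once its pseudogenes were added, which made it 1.56 times as high. Over all 110 genes of the 11 lists around the pathway, 23 of 81 tested were called between the libraries, beside 24.4% of all genes tested. Of the 81, 7 were called higher in library 2 and 16 in library 1, beside 11.6% and 12.8% of all genes tested.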

How the data were processed

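Both technical libraries of 1 sample, all 1 group, were analysed. Per the deposited readme texts the larger gene and transcript tables use mm10 with GENCODE M21; their column names are those RSEM writes. For aligner, quantifier and versions nothing is stated in the sources used here. The authors deposited expected counts without scaling, rounded here to whole numbers for tests. The deposited TPM values are scaled by length and to a fixed sum over all features of a table. Per the file headers, the transcript table gives the percent of a gene's TPM on each transcript. The authors' smaller table holds raw whole-number counts on GENCODE M4, with the counting tool not stated.

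Features without an annotated gene, 0.176% and 0.169% of counts, were left out. Effective lengths are 49 bases below the lengths, which fits reads of 50 bases, so 50-base windows on the same strand measured sharing. Members are expressed at 1 TPM in both libraries; transcripts are listed at 10% or more. Libraries were compared by the exact binomial test conditional on the sum, for genes with 10 or more summed counts. Sizes were scaled by TMM (edgeR 4.0.16, R 4.3.3), with a prior count of 0.5 and Benjamini-Hochberg adjustment at 0.05 (scipy 1.17.1). The code was tested on simulated data that held counting error only, without the further variation seen between these libraries. One library on each side leaves no dispersion model per gene. The members and lists were chosen with earlier results of these data known. All members are named; of the other lists, the 2 highest genes and, in lists of 5 or more, the lowest, except that some of these genes are not reported here. Genes named beyond that, such as Gm49759 and those overlapping a member on the opposite strand, were chosen after their values were seen. No protein sequence was used here.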

Additional observations from a re-analysis of the deposited data

How the results depend on the processing

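No paired analysis was possible because both libraries belong to the same group. The median member level was 38.0 TPM. It was 29.1 TPM on protein-coding transcripts only and ran from 31.1 to 43.5 TPM with either library alone. The median beside it, 18.5 TPM, was 0.025 TPM over all genes with a symbol, and, in alternatives chosen after seeing the data, 12.6 TPM on coding transcripts and 17.3 to 18.1 TPM with either library alone. The count of expressed members was 33, or 30 on coding transcripts and 24 at 5 TPM. The leading isozyme was the same in all 10 steps by counts per length and with either library alone. It changed in 1 step, where Pdk3 led over Pdk1: the share of Pdk1 was 29.7% on coding transcripts, and 29.7% in the smaller table too. In the smaller table the share of Eno1 in its step was 52.8% in place of 95.5%, and that of Ldha 68.3% in place of 89.6%. The cause was not tested. The M2 share of Pkm-201 and Pkm-202 was 95.6%, or 96.3% by counts, and 95.6% with either library alone. Members called between libraries numbered 14 (24.4% of all genes), with 14 under library totals (24.3%), 12 without the count filter (12.8%), 3 in the smaller table, all among the 14 (9.96%), and 2 with a 1.5-fold minimum (8.27%). Members with 20% or more shared windows numbered 8, or 5 with 100-base windows, and 6, chosen after seeing the data, over the windows of all transcripts. Levels of genes annotated as pseudogenes were added. Other genes that share windows were not, among them Eno1b, annotated as protein coding, and Gm49759. Leaving out a library was not run for the comparison of the libraries, which needs both. With 1 animal and 2 technical libraries, no value here carries an error between animals, and genes with under about 100 counts, such as Hk2, Hk3, Eno2 and Pdk4, have wide intervals.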

Other observations

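Genes that regulate the pathway were measured in the same libraries. Of 9 genes of hypoxia factor regulation 7 were expressed, with Arnt, the partner of Hif1a, at 27.7 ± 1.14 TPM, Hif1an, which restrains Hif1a, at 15.8 ± 4.99 TPM, and Hif3a lowest at 0.490 ± 0.269 TPM. Among 13 known hypoxia targets outside glycolysis 9 were expressed. Bnip3l, a receptor for mitochondrial autophagy, was at 375 ± 13.9 TPM, and Higd1a at 92.1 ± 5.33 TPM, whereas Vegfa had 0 counts in both libraries. In the network around Myc 9 of 12 genes were expressed. Mxd4, which competes with Myc for Max, was at 96.3 ± 1.95 TPM and Mlx at 50.8 ± 0.205 TPM. Mycl was the lowest, at 0.010 ± 0.0141 TPM.

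Brakes on glucose use were led by Txnip, which lowers glucose uptake, at 280 TPM in library 1 and 279 TPM in library 2, above every member but Aldoa, Pkm, Ldha, Eno1 and Gpi1. Foxo1 was at 28.6 ± 1.46 TPM, Prkaa2 had 0 counts, and none of the 7 genes tested in that list of 8 was called between libraries, beside 24.4% of all genes tested. All 11 genes of the mTOR and Akt list were expressed, with Inpp5d highest at 119 ± 16.2 TPM and Rheb next at 73.6 ± 3.10 TPM. In this list 5 of 11 were called between the libraries, all 5 higher in library 1, beside 24.4% of all genes tested in either direction and 12.8% higher in library 1.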
